A study of Mus musculus with 22 samples.

Results

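The Wnt pathway genes described here are 45 genes that encode Wnt ligands and the proteins that secrete them, Wnt receptors, secreted Wnt inhibitors, the core of the pathway and its target genes, leaving out the ligands of the cortical hem. They were picked by symbol, and all 45 were found among the 24421 genes of the count table. They fall into 8 genes of ligands and secretion, 14 receptors, 4 secreted inhibitors, 10 core genes and 9 target genes. RNA-seq counts came from 3 *Prdm16* KO and 3 control libraries of mouse embryos at embryonic day E13.5. The KO embryos were homozygous for a *Prdm16* null allele. The study's methods describe such alleles as gene traps (*cGT* or *cGTreinv*) kept by crossing to FVB/NJ mice, and the labels do not say which of them each embryo carried. The loss is constitutive, so it concerned every tissue of the embryo and not the cortex alone. The controls were littermates labelled heterozygous or wild type without saying which, so some may carry 1 null allele. Their sample titles and column headings say wild type, and the study's RNA-seq methods call them both control and wild type. The labels call the tissue forebrain and the methods describe dissected cortex.

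Secreted Wnt proteins bind Frizzled receptors together with the co-receptors LRP5 and LRP6. In the canonical branch this stops the destruction complex of AXIN, APC and GSK3B from degrading β-catenin, which then works with TCF and LEF factors on target genes. Several targets, such as *Axin2*, *Nkd1*, *Notum*, *Znrf3* and *Rnf43*, encode inhibitors that feed back on the pathway. In the embryonic cortex, Wnt signals from the hem at the medial edge pattern the hippocampus and the dorsal midline, and Wnt signalling in radial glia (the progenitors of the cortex) bears on proliferation and neurogenesis.

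Each library was taken to come from 1 embryo, since its column heading holds 1 animal number, and is called here by that number. The methods do not say whether embryos were pooled for RNA. Total counts were 16638433 to 41140614 per KO library and 28569526 to 43066648 per control library. *Prdm16* itself measured 9.6, 6.58 and 6.82 CPM (counts scaled to library size, with TMM factors) in KO F727, F728 and F731, against 58.2, 45.0 and 37.8 CPM in control F722, F724 and F725, as the labels say (edgeR log2 fold change -2.61, adjusted *P* = 0.0536; DESeq2 adjusted *P* = 7.09e-24). Library KO F731 stood apart: it was the shallowest, had counts for 22991 genes where the others had 17795 to 18320, gave 7.39% of its counts to the ribosomal precursor gene *Rn45s* and held 4873 CPM of erythrocyte markers, against 1345 to 1738 CPM elsewhere. All 8 cortical hem markers were lowest in library control F724, and their sum was 95.5 to 123 CPM in KO libraries, against 28.5 CPM in control F724 and 91.3 and 106 CPM in the other control libraries. *Xist* counts of 8943 in KO F731 and 37711 in control F725, against 7 to 14 in the other libraries, mark 1 female embryo in each group. Without KO F731, a female embryo remained in control only, and *Xist* had the lowest log2 fold change of all tested genes (-10.76, edgeR). Dorsal telencephalon markers summed to 1507 to 2012 CPM in KO and 1871 to 2234 CPM in control, and ventral telencephalon markers to 400.4 to 584 CPM in KO and 447 to 769.8 CPM in control. Fold changes without KO F731 or without control F724 follow where a value rested on that library.

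No Wnt pathway gene passed the test between *Prdm16* KO and control forebrain. None of the 44 genes with enough counts to test passed an adjusted *P* of 0.05 in edgeR's quasi-likelihood test, in which no gene of the 15027 tested did (0% higher and 0% lower), and the lowest adjusted *P* of a Wnt pathway gene was 0.863. DESeq2 called none of the 44 either, where it called 0.102% of all genes higher and 0.0128% lower. Leaving out any 1 library gave no call among them in either tool. At an unadjusted *P* under 0.05 in edgeR, 3 Wnt pathway genes were higher in KO (*Sfrp4*, *Fzd9* and *Nkd2*) and 0 were lower, against 1.26% of all genes higher and 0.665% lower. In 3 genes (the same *Sfrp4*, *Fzd9* and *Nkd2*) all KO libraries lay above all control libraries, and in 1 gene (*Nkd1*) all lay below, against 3.86% and 3.55% of all genes. Without KO F731 and control F724 the counts were 7 above and 4 below, against 11.2% and 10.1% of all genes. The smallest *P* that an exact permutation test allows with 3 embryos a group is 0.1, so no such test could pass. The log2 fold change of KO over control was above 0 in 23 genes and below 0 in 21, against 49.2% and 50.8% of all genes, and its median was 0.021 over the Wnt pathway genes and -0.0037 over all genes. Without KO F731 the median of the Wnt pathway genes was 0.043, and without control F724 -0.018. In bulk tissue, fewer cells of a type and less RNA per cell cannot be told apart.

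**Figure D1:**
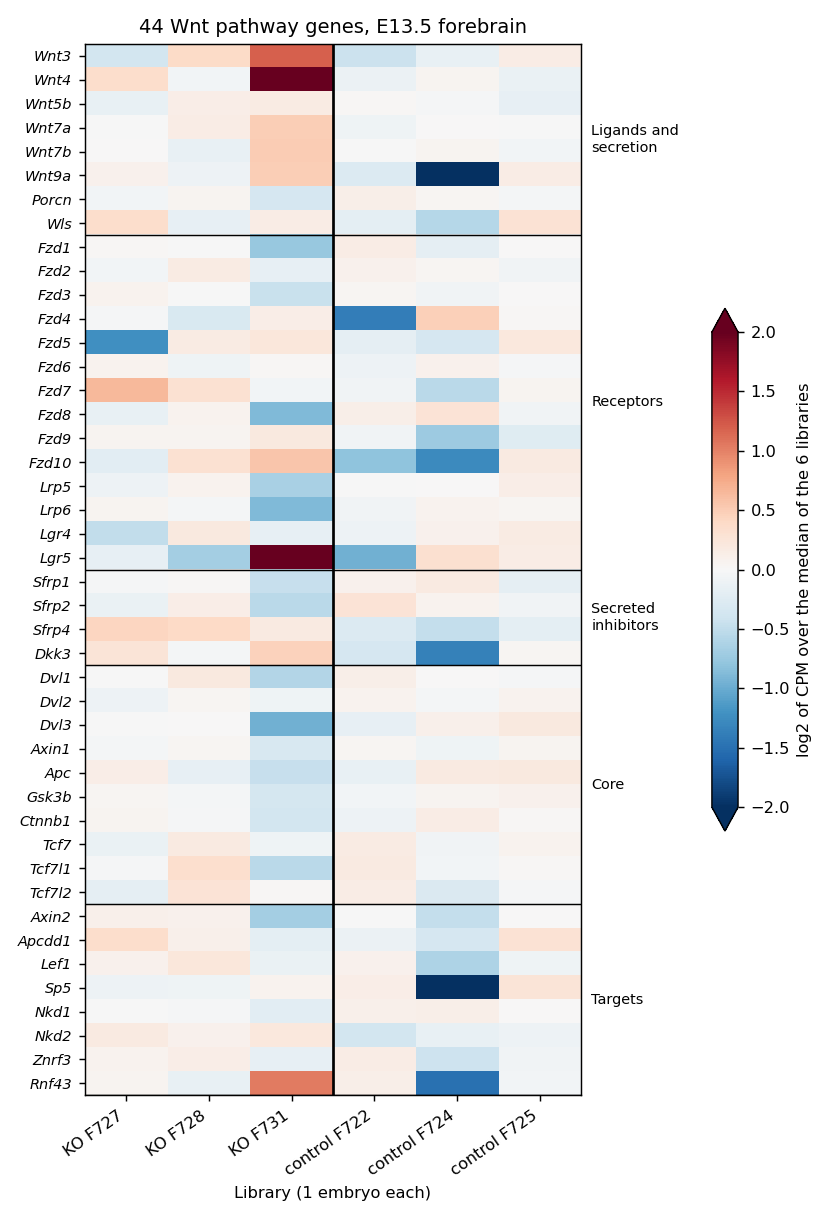
Level of the 44 tested Wnt pathway genes (rows, by role) in each library (columns, 3 KO left of 3 control), as the log2 of TMM-scaled CPM over the gene's median of the 6 libraries; colours stop at -2 and 2. The largest departures sit in single libraries, KO F731 (*Wnt4*, *Lgr5*) and control F724 (*Sp5*, *Wnt9a*), rather than in all libraries of a group.

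With all 6 libraries the roles leaned in different directions, and none of them held a called gene. Median log2 fold changes were 0.25 for ligands and secretion (7 of 8 genes above 0), -0.054 for receptors (6 of 14), 0.24 for secreted inhibitors (2 of 4), -0.11 for core genes (1 of 10) and 0.19 for target genes (7 of 8 tested). Leaving out KO F731 gave medians of 0.15 for ligands, 0.0039 for receptors, 0.27 for inhibitors, -0.025 for core genes and 0.27 for targets. Leaving out control F724 gave, in the same order, 0.19, -0.072, 0.13, -0.13 and 0.0036. With both left out the medians were 0.062, 0.025, 0.15, -0.02 and 0.08. KO F731 held the lowest level of 7 of the 10 core genes (70.0%, against 38.5% of all genes) and the highest of 6 of the 8 genes of ligands and secretion (75%, against 38.4% of all genes), and its part in these medians beyond the values without it was not tested.

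**Figure D2:**
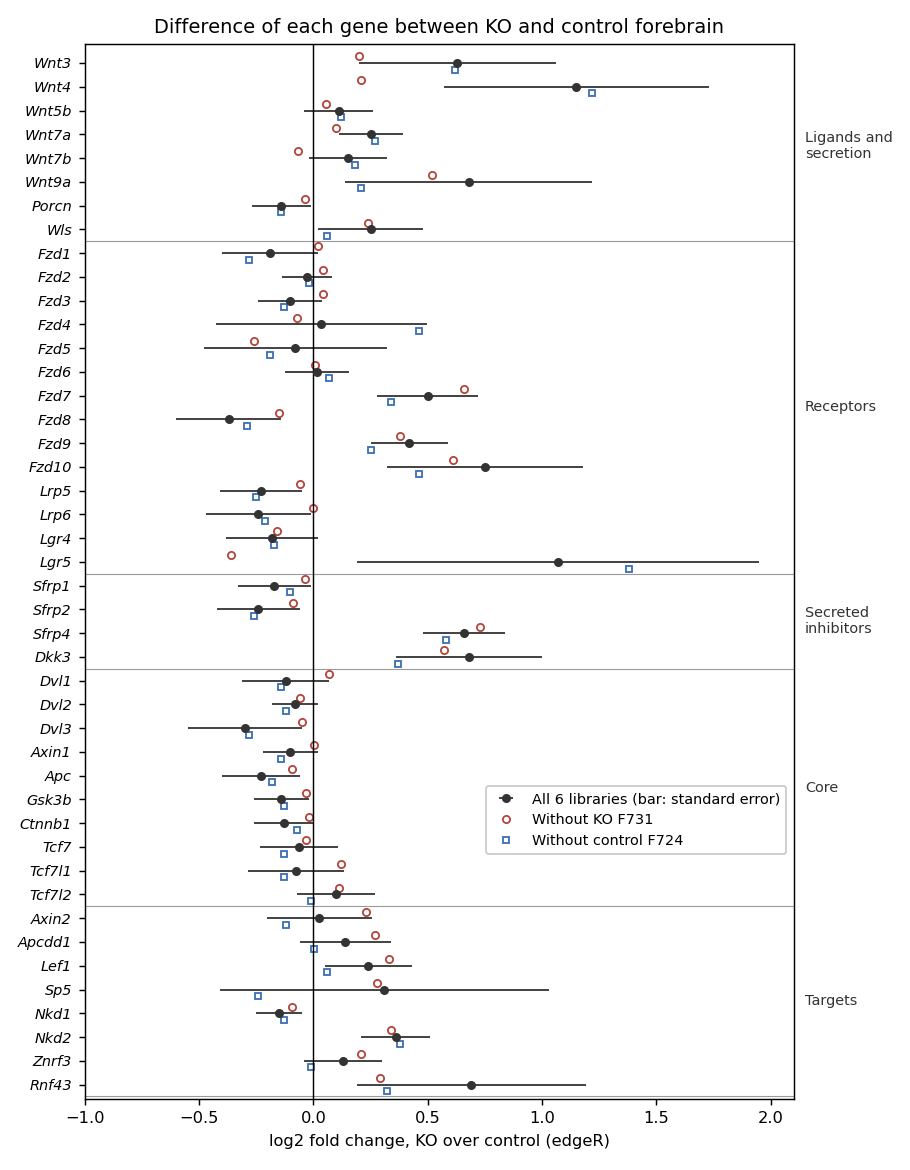
Log2 fold change of KO over control for each tested Wnt pathway gene (edgeR; bars, standard error) with all 6 libraries, without KO F731 and without control F724. *Sfrp4*, *Fzd7*, *Fzd9* and *Nkd2* stay above 0 under all 3 choices, as do others such as *Wnt3*, *Wnt4*, *Dkk3* and *Rnf43*. *Sp5* lies at 0.31 with all libraries and at -0.24 without control F724. *Lgr5* lies at 1.07 with all libraries and at -0.36 without KO F731.

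Among the 6 ligands described here, which leave out those of the hem, the RNA was mostly *Wnt7b* and *Wnt7a*. Both are neural Wnts known for building the blood vessels of the brain. Per kilobase of exon, *Wnt7b* averaged 32.3 ± 7.94 RPKM in KO and 29.0 ± 1.16 RPKM in control, and *Wnt7a* 23.7 ± 4.39 RPKM in KO and 19.9 ± 0.690 RPKM in control (SD, *n* = 3). Of the summed RPKM of the 6 ligands, *Wnt7b* took 48.7% to 54.2% in KO libraries and 53.1% to 55.5% in control libraries, and *Wnt7a* 37.3% to 41.6% in KO and 36.3% to 38.1% in control. The others of these 6 were low. *Wnt5b* was at 3.28 RPKM, *Wnt9a* at 1.22, *Wnt3* at 0.555 and *Wnt4* at 0.541 RPKM in KO, against 3.04, 0.764, 0.348 and 0.230 RPKM in control. *Wnt7b* shares 324 exonic bases with *AU022754* on the other strand, and without knowledge of the strand setting their reads cannot be separated.

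*Wnt7b* measured 144, 128 and 202 CPM in KO, against 141, 148 and 137 CPM in control. Only KO F731 lay above the control range, and KO F728 lay below it (log2 fold change 0.15, SE 0.17, adjusted *P* = 0.863, edgeR). Without KO F731 the value was -0.066. *Wnt4*, a ligand known from kidney and gonad development, had the largest fold change of the role, with 1.29, 0.966 and 4.54 CPM in KO, against 0.929, 1.05 and 0.917 CPM in control. These are 47, 41 and 66 reads in KO and 32, 47 and 27 reads in control, and KO F731 was far above the rest. Its log2 fold change of 1.15 (SE 0.58, adjusted *P* = 0.863, edgeR) became 0.21 without that library. *Wnt3* (0.63, and 0.20 without KO F731) likewise had its highest value in that library. *Wnt9a* (0.68) turned on the other library, with 3.35 to 5.03 CPM in KO, against 0.692 CPM in control F724 and 2.96 and 3.98 CPM in the other control libraries, and measured 0.21 without control F724. *Porcn*, which attaches the lipid that Wnts need for secretion, had the lowest fold change of the role (-0.14, SE 0.13, and -0.038 without KO F731), and lies on the X chromosome. *Wls*, the carrier that brings Wnts to the cell surface, measured 0.25 (SE 0.23), and 0.06 without control F724. *Wnt7a* and *Wnt5b* measured 0.25 (SE 0.14) and 0.11 (SE 0.15), and without KO F731 0.10 and 0.056.

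Among receptors, *Fzd2* had the highest level per length, 29.5 ± 3.52 RPKM in KO and 30.1 ± 1.67 RPKM in control. *Fzd3*, *Fzd9* and *Fzd1* followed at 18.6 ± 3.39, 16.7 ± 0.870 and 16.2 ± 4.5 RPKM in KO, which do not differ beyond their spread, and at 19.9 ± 0.677, 12.4 ± 2.79 and 18.5 ± 2.16 RPKM in control. *Fzd8* came next at 9.61 ± 3.02 RPKM in KO and 12.5 ± 1.47 in control, and *Fzd7* at 6.22 ± 1.49 RPKM in KO and 4.41 ± 0.897 in control. The co-receptor *Lrp6* was above *Lrp5*, at 5.17 ± 1.64 against 2.57 ± 0.623 RPKM in KO and 6.11 ± 0.300 against 3.04 ± 0.155 RPKM in control. *Fzd6* and the R-spondin receptor *Lgr4* measured 1.33 and 1.30 RPKM in KO and 1.31 and 1.48 RPKM in control. *Fzd10*, *Fzd5*, *Fzd4* and the other R-spondin receptor, *Lgr5*, were under 1 RPKM in both groups.

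*Fzd9* was higher in every KO library than in any control library. It measured 37.1, 37.1 and 40.6 CPM in KO, against 34.0, 21.5 and 30.1 CPM in control, with the lowest value in control F724. The log2 fold change was 0.42 (SE 0.17, adjusted *P* = 0.863, edgeR), past an unadjusted 0.05, and not past it at 0.38 (SE 0.18) without KO F731 or at 0.25 (SE 0.14) without control F724. The gene lies at chr5:135248938-135251230 (GRCm38, minus strand).

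*Fzd7* (chr1:59482424-59486955, plus strand) measured 35.2, 27.7 and 21.7 CPM in KO, against 21.3, 15.4 and 23.2 CPM in control. The groups overlapped, since KO F731 was below control F725 (log2 fold change 0.50, SE 0.22, adjusted *P* = 0.863, edgeR). Without KO F731, which was the lowest KO value, the log2 fold change was 0.66 (SE 0.18). DESeq2 then gave an adjusted *P* of 0.213, the lowest of the 45 genes there. That fit called 0.143% of all genes higher, 0.0623% lower and 0 of the 45 genes. Without control F724 the log2 fold change was 0.34 (SE 0.22).

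The make-up of the Frizzled RNA depends on the levels of all Frizzled genes, since each share is a part of their sum. *Fzd7* took 7.39%, 5.63% and 5.72% of the summed Frizzled RPKM in KO libraries, against 4.42%, 3.58% and 5.19% in control libraries, and *Fzd9* 15.4%, 14.9% and 21.1% in KO, against 13.9%, 9.88% and 13.3% in control. For both receptors the ranges of the groups did not overlap, and no share over all genes is at hand for this measure. The CPM of *Fzd7* did overlap, at 21.7 in KO F731 and 23.2 in control F725. KO F731 had the lowest CPM of *Fzd1*, *Fzd3* and *Fzd8*, which are parts of the sum. *Fzd8* took 7.49% to 11.2% in KO and 11.2% to 14.7% in control, and *Fzd2*, the most abundant, 27.1% to 31.7% in KO and 28.6% to 32.2% in control. These shares are a description and were not tested. The lowest fold change among receptors was that of *Fzd8*, at 62.2, 72.6 and 37.5 CPM in KO, against 74.9, 83.4 and 65.8 CPM in control. KO F731 was the lowest and the groups overlapped (-0.37, SE 0.23, adjusted *P* = 0.863, edgeR), and the value was -0.15 without KO F731.

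**Figure D3:**
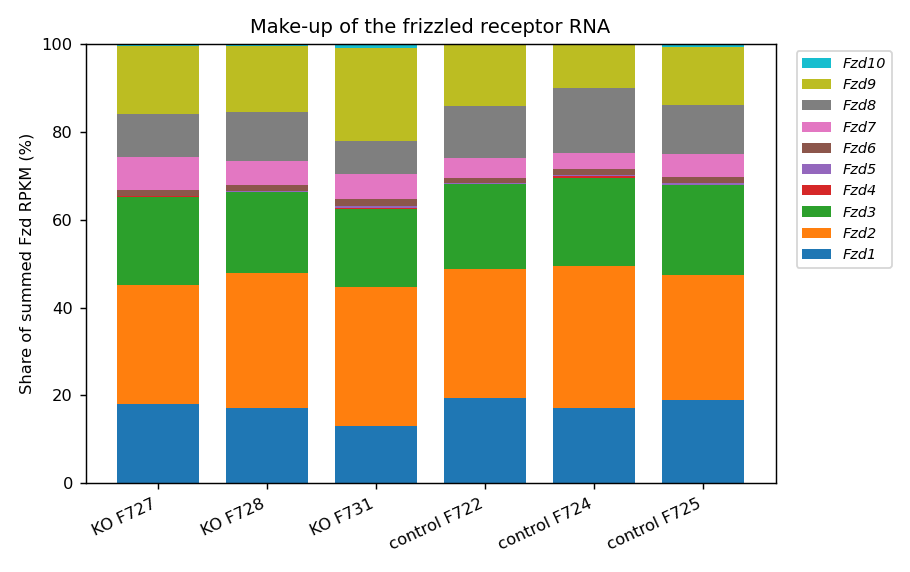
Share (%) of each Frizzled gene in the summed RPKM of the 10 Frizzled genes, per library (3 KO left of 3 control). *Fzd2*, *Fzd3* and *Fzd1* filled most of every bar, *Fzd9* took 14.9% to 21.1% in KO and 9.88% to 13.9% in control, and *Fzd7* 5.63% to 7.39% in KO and 3.58% to 5.19% in control.

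*Lgr5* had the largest fold change among receptors and the fewest reads, with 11, 9 and 27 reads in KO and 6, 19 and 11 in control. The 27 reads of the shallow KO F731 made 1.86 CPM, against 0.303 and 0.212 CPM in the other KO libraries and 0.174 to 0.424 CPM in control. Its log2 fold change was 1.07 (SE 0.88, adjusted *P* = 0.863, edgeR) with all libraries and -0.36 without KO F731. *Fzd10* measured 0.75 (SE 0.43) with overlapping groups, and 0.46 without control F724. *Lrp6* (-0.24), *Lrp5* (-0.23) and *Fzd1* (-0.19) were all lowest in KO F731, and without it measured 0.00057, -0.057 and 0.021. *Fzd2*, *Fzd3*, *Fzd4*, *Fzd5*, *Fzd6* and *Lgr4* lay between -0.18 (*Lgr4*) and 0.035 (*Fzd4*), between -0.26 (*Fzd5*) and 0.044 (*Fzd3*) without KO F731, and between -0.19 (*Fzd5*) and 0.46 (*Fzd4*) without control F724.

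*Sfrp1* was the most abundant of the secreted inhibitors, with *Sfrp2* and *Dkk3* at lower levels and *Sfrp4* the lowest, at 71.2, 15.5, 9.29 and 1.13 RPKM in KO, against 80.3, 18.4, 5.80 and 0.717 RPKM in control. Proteins of the SFRP family carry a Frizzled-like domain that binds Wnts outside the cell. *Sfrp1* took 79.9% to 82.0% of the summed *Sfrp* RPKM in KO and 79.5% to 82.5% in control, and *Sfrp2* 16.7% to 19.0% in KO and 16.9% to 19.8% in control. *Sfrp4* took 1.17% to 1.44% in KO and 0.598% to 0.894% in control.

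*Sfrp4* (chr13:19623104-19632994, plus strand) had the lowest unadjusted *P* of the Wnt pathway genes. It measured 5.03, 4.88 and 4.20 CPM in KO, against 3.08, 2.68 and 3.23 CPM in control, from 61 to 207 reads a library. Every KO library was above every control library, with means of 4.70 ± 0.443 CPM in KO and 2.99 ± 0.284 CPM in control (SD, *n* = 3; log2 fold change 0.66, SE 0.18, adjusted *P* = 0.863, edgeR; adjusted *P* = 0.960, DESeq2). The value was 0.73 without KO F731 and 0.58 without control F724, so its direction rested on neither library. It did not pass the adjusted threshold in any of these fits.

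*Sfrp1* measured 336, 349 and 249.6 CPM in KO, against 364, 386 and 303 CPM in control. KO F731 was the lowest and the groups overlapped (-0.17, SE 0.16, adjusted *P* = 0.863, edgeR). *Sfrp2* measured 33.8, 40.8 and 25.4 CPM in KO, against 44.8, 39.0 and 35.1 CPM in control, again lowest in KO F731 (-0.24, SE 0.18, adjusted *P* = 0.863). Without KO F731 they measured -0.037 and -0.088, and without control F724 *Sfrp1* measured -0.10. *Dkk3* (chr7:112116017-112159057, minus strand), a divergent member of the Dickkopf family of secreted inhibitors, measured 31.7, 25.7 and 36.2 CPM in KO, against 20.9, 10.4 and 27.1 CPM in control. The groups overlapped at 1 pair of libraries, KO F728 and control F725, and control F724 was the lowest (0.68, SE 0.32, adjusted *P* = 0.863, edgeR; adjusted *P* = 0.960, DESeq2). Without control F724 the value was 0.37 (SE 0.20).

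**Figure D4:**
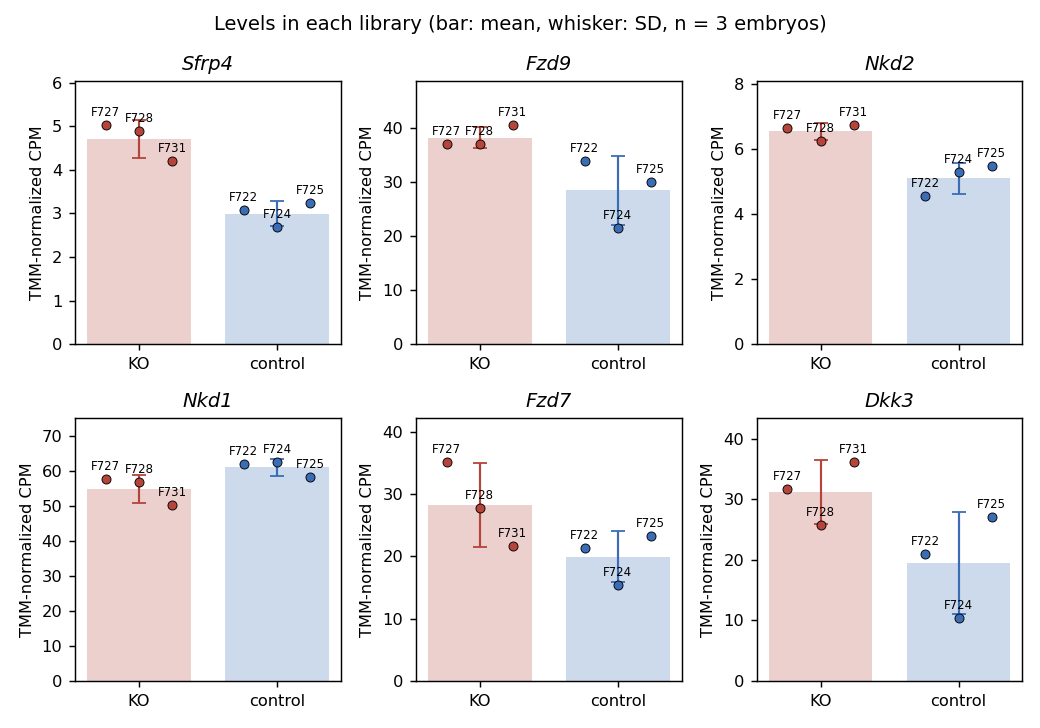
TMM-scaled CPM (linear axes from 0) of 6 Wnt pathway genes in each library, KO left of control; bars give the mean, whiskers the SD (*n* = 3 embryos) and points the libraries. KO libraries lie above all control libraries for *Sfrp4*, *Fzd9* and *Nkd2* and below them for *Nkd1*, and the groups overlap for *Fzd7* and *Dkk3*.

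The core of the pathway showed no gene past an unadjusted *P* of 0.05. *Ctnnb1*, which encodes β-catenin, was the most abundant of all Wnt pathway genes per length, at 251 ± 36.5 RPKM in KO and 276 ± 23.8 RPKM in control; β-catenin also serves cell adhesion. It measured 1449.9, 1375 and 1091 CPM in KO, against 1310.3, 1558 and 1429 CPM in control. The groups overlapped, with KO F731 the lowest (-0.13, SE 0.13, adjusted *P* = 0.863, edgeR), and the value was -0.02 without it and -0.072 without control F724. *Ctnnb1* shares 782 exonic bases with the other-strand gene *Ulk4* and a microRNA gene, so its count is uncertain to that extent. The genes of the destruction complex, *Axin1*, *Apc* and *Gsk3b*, measured -0.10, -0.23 and -0.14, and without KO F731 0.00085, -0.094 and -0.031. *Dvl3*, 1 of the 3 *Dvl* genes that relay the signal from Frizzled, had the lowest core value (-0.30, SE 0.25) and measured -0.051 without KO F731. *Dvl1* and *Dvl2*, whose exons also overlap other counted genes, measured -0.12 (0.068 without KO F731) and -0.079 (-0.12 without control F724).

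*Tcf7l1*, known mainly as a repressor among the TCF factors, took 61.9% to 70.8% of the summed RPKM of the TCF and LEF genes in KO and 69.9% to 73.4% in control. *Lef1* took a mean of 15.2% in KO and 12.3% in control. Per exonic length, *Tcf7* and *Tcf7l2* took about as much as each other, with means of 8.92% and 8.48% in KO and 9% and 7.58% in control. This near-equality rested on the length used. Per length of the longest transcript, *Tcf7l2* took a mean of 13.1% in KO, against 6.18% for *Tcf7*. *Tcf7l2* was then also above *Tcf7* in every control library. *Tcf7l2*, the only core gene with a value above 0, had 439, 705 and 204 reads in KO, against 523, 502 and 397 reads in control, and averaged 14.2 ± 2.28 CPM in KO and 13.3 ± 2.0 CPM in control (SD, *n* = 3), with overlapping groups (0.10, SE 0.17, adjusted *P* = 0.878, edgeR; -0.011 without control F724). *Tcf7l1*, which shares 179 exonic bases with *Gm15401*, measured -0.076 (SE 0.21), which was 0.12 without KO F731 and -0.13 without control F724. *Tcf7* measured -0.063 (SE 0.17), which was -0.03 without KO F731 and -0.13 without control F724.

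The target genes are the usual readout of canonical signalling, and here none of the 8 tested passed the test. *Axin2*, a feedback scaffold and the most used reporter of the pathway (chr11:108920349-108950783, plus strand), measured 37.8, 37.5 and 22.2 CPM in KO, against 35.2, 25.5 and 35.6 CPM in control. KO F727 and F728 were the highest of the 6 libraries and KO F731 the lowest, so the means were 32.5 ± 8.90 CPM in KO and 32.1 ± 5.75 CPM in control (SD, *n* = 3; log2 fold change 0.026, SE 0.23, adjusted *P* = 0.976, edgeR). The value was 0.23 (SE 0.15) without KO F731 and -0.12 (SE 0.24) without control F724. *Lef1*, both a factor and a target of the pathway, measured 26.1, 28.7 and 22.4 CPM in KO, against 26.2, 16.1 and 23.2 CPM in control. The groups overlapped and control F724 was the lowest (0.24, SE 0.19, adjusted *P* = 0.863), with 0.06 (SE 0.17) without it.

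*Nkd1* and *Nkd2* encode related inhibitors that bind Dishevelled, and their fold changes lay on opposite sides of 0. *Nkd2* (chr13:73818534-73847631, minus strand) measured 6.66, 6.25 and 6.75 CPM in KO, against 4.56, 5.29 and 5.47 CPM in control. Every KO library was above every control library (0.36, SE 0.15, adjusted *P* = 0.863, edgeR), and leaving out either library that stood apart left the value at 0.34 without KO F731 and 0.38 without control F724, neither of them past an unadjusted 0.05, nor was the DESeq2 value of 0.34 with all libraries. *Nkd1* (chr8:88521354-88594884, plus strand) measured 57.5, 56.8 and 50.2 CPM in KO, against 61.9, 62.6 and 58.3 CPM in control. Every KO library was below every control library, by a small margin (-0.15, SE 0.10, adjusted *P* = 0.863, edgeR; -0.093 without KO F731). Per length, *Nkd1* was the more abundant, at 12 ± 0.885 RPKM in KO and 13.4 ± 0.504 in control, against 1.36 ± 0.0555 RPKM in KO and 1.06 ± 0.1 in control for *Nkd2*.

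*Sp5*, a transcription factor gene that responds directly to β-catenin in many tissues (chr2:70474923-70477729, plus strand), was set apart by 1 library. It measured 3.16, 3.21 and 3.58 CPM in KO, against 3.72, 0.290 and 4.08 CPM in control, that is 115, 136 and 52 reads in KO, against 128, 13 and 120 in control. The log2 fold change was 0.31 (SE 0.72, adjusted *P* = 0.908, edgeR) with all libraries and -0.24 (SE 0.22) without control F724, where all KO libraries lay below both control libraries.

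Control F724 was the lowest library for 5 of the 8 tested target genes (62.5%), against 13 of the 44 Wnt pathway genes (29.5%) and 17.2% of all genes. It was also the library in which all 8 hem markers were lowest, a link that was noticed after the values were seen. *Wnt3a*, a hem ligand, measured 5.56, 4.76 and 6.34 CPM in KO, against 4.79, 0.179 and 4.59 CPM in control, and *Rspo3*, an R-spondin, 34.5, 25.3 and 34.7 CPM in KO, against 24.8, 11.2 and 27.0 CPM in control. None of the 8 was at 0. Whether the amount of hem tissue in this library had a part in the low target genes was not tested.

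**Figure D5:**
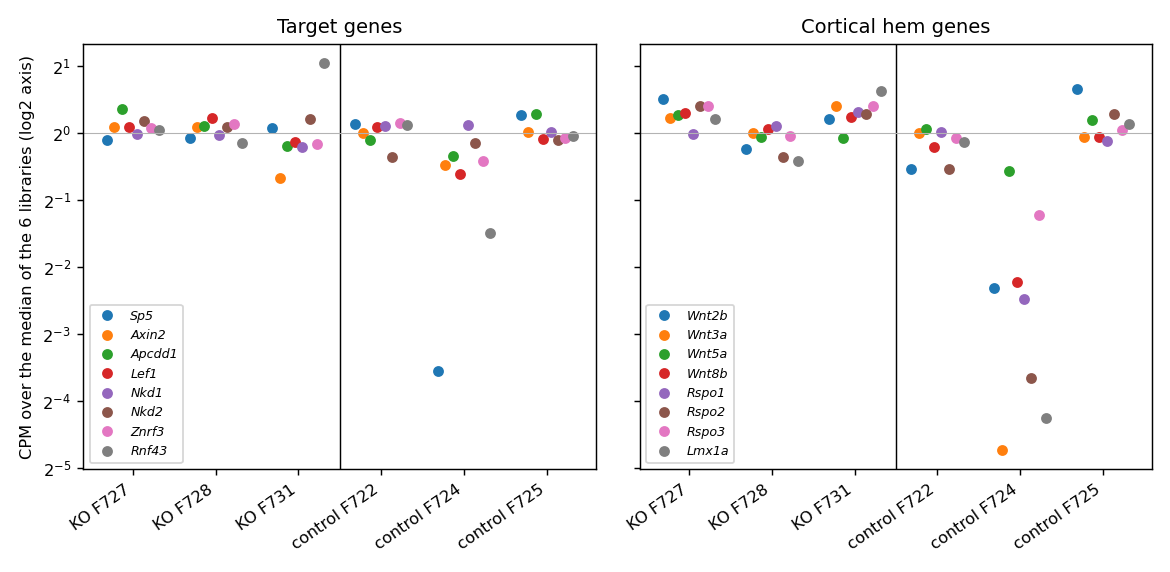
CPM of the 8 tested target genes (left) and the 8 cortical hem markers (right) over the gene's median of the 6 libraries (log2 axis), per library, 3 KO left of 3 control. In control F724 all hem markers and all targets but *Nkd1* lie below their median, *Sp5* and *Rnf43* by the most among the targets.

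*Rnf43* and *Znrf3* encode membrane ubiquitin ligases that clear Frizzled receptors from the cell surface. *Rnf43* had the largest fold change of the targets (0.69, SE 0.50, adjusted *P* = 0.863, edgeR), with 1.49, 1.30 and 2.96 CPM in KO, against 1.57, 0.513 and 1.39 CPM in control. KO F731 was high and control F724 low, and the value was 0.29 without KO F731, 0.32 without control F724 and -0.092 without both. *Znrf3* measured 0.13 (SE 0.17) and *Apcdd1*, a membrane inhibitor, 0.14 (SE 0.20), and they measured 0.21 and 0.27 without KO F731 and -0.0097 and 0.0036 without control F724. *Notum*, which encodes an enzyme that strips the lipid from Wnts, had 5, 14 and 13 reads in KO and 3, 11 and 2 in control, and was left out by the count filter of the edgeR fit with all libraries. DESeq2, with no such filter, gave a log2 fold change of 1.66 (SE 1.14, adjusted *P* = 0.960), which was 0.77 without KO F731 and 2.47 without control F724.

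Upstream sequence is shown for 4 of these genes, *Fzd7* as the receptor with the largest value without KO F731, *Nkd2* as the target whose KO libraries all lay above control, *Sp5* as the target with the widest range, and *Axin2* as the standard reporter. Each run holds the 250 bases before the RefSeq start (GRCm38.p6), in lower case, with matches to a TCF/LEF word in capitals. The word CTTTGAT was searched on both strands, and so were its variants with other last letters, namely CTTTGAA and also CTTTGTT as well as the word CTTTGTA. No match overlaps another in these runs. RefSeq promoters were found for 28 of the 45 genes. 
*Sp5*, chr2:70474673-70474922, plus strand: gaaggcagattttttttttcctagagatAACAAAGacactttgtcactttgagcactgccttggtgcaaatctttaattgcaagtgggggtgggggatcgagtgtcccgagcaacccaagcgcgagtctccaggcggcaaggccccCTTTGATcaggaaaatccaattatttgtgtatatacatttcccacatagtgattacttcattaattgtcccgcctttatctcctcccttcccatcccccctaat
*Axin2*, chr11:108920099-108920348, plus strand: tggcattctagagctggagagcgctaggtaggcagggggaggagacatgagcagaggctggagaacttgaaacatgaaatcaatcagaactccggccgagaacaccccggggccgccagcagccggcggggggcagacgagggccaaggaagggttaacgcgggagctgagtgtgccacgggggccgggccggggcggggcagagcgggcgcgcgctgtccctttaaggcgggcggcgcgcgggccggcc
*Fzd7*, chr1:59481897-59482146, plus strand: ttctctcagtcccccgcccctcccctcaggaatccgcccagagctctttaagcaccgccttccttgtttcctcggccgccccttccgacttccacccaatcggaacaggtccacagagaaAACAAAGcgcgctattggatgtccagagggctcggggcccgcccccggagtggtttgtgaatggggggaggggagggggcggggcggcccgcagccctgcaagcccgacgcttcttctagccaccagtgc
*Nkd2*, chr13:73847632-73847881, minus strand: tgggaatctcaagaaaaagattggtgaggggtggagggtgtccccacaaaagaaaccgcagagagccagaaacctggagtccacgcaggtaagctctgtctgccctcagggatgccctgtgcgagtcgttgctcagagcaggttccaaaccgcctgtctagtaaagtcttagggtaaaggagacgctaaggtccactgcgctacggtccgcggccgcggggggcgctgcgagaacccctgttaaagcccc

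*Sp5* held 2 matches, CTTTGTT on the other strand beginning at -222 from the start and CTTTGAT at -104. *Fzd7* held 1, CTTTGTT on the other strand at -130, and the windows of *Axin2* and *Nkd2* held none of the 4 words. Over the 37 RefSeq promoters of the 28 genes, 5 held at least 1 word, against 14.8% of 32851 promoters of the same length. By word, CTTTGAT was in 3.21% of these 32851 promoters, CTTTGAA in 4.46%, CTTTGTT in 5.03% and CTTTGTA in 3.20%. A match is a run of letters and not a shown binding site, and enhancers lie outside these windows.

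No further gene of the pathway was called either. A list of 83 further Wnt genes in the table (other ligands, receptors, inhibitors, core genes, planar polarity genes and targets) held 69 that could be tested, of which 0 passed the adjusted threshold in edgeR. Their log2 fold change was above 0 in 25 and below 0 in 44, against 49.2% and 50.8% of all genes, with a median of -0.056 that was -0.021 without KO F731. At an unadjusted *P* under 0.05, 1 gene was higher and 1 lower, against 1.26% and 0.665% of all genes. The higher was *Frzb*, also a secreted Frizzled-related inhibitor, at 5.31, 5 and 5.99 CPM in KO, against 4.62, 3.28 and 3.94 CPM in control (0.46, SE 0.19, adjusted *P* = 0.863, edgeR). The lower was *Celsr3*, an atypical cadherin of the planar polarity group known for its role in axon tracts, at 99.9, 101 and 89.8 CPM in KO, against 107, 122 and 121 CPM in control (-0.27, SE 0.10, adjusted *P* = 0.863, edgeR). For both genes the groups did not overlap, and neither was past an unadjusted 0.05 without control F724, nor *Frzb* without KO F731. The groups also did not overlap for *Dact2* (0.23), with KO above, and for *Tle3* (-0.22) and *Intu* (-0.31), with KO below. Of the 69 genes, KO libraries thus lay above control in 2 and below in 3, against 3.86% and 3.55% of all genes. *Daam2*, a formin of the polarity group, measured 0.37 with overlapping groups and 0.52 without KO F731 (SE 0.11, adjusted *P* = 0.853, edgeR; adjusted *P* = 0.143, DESeq2); it was added after its values were seen. By group, 24 of the 32 further core genes and 10 of the 12 planar polarity genes had values below 0, with medians of -0.11 and -0.14, against 44 of 69 over the whole list. Without KO F731 these medians were -0.054 and -0.087, with 28 of the 32 and 9 of the 12 genes below 0. Without control F724 they were -0.065 and -0.12, with 25 of the 32 and 10 of the 12 below 0.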

How the data were processed

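Forebrain RNA-seq counts of 3 *Prdm16* KO and 3 control libraries were used. Per the study's methods, adaptors were removed with Trimmomatic and HISAT2 placed the reads on mm10. The values deposited by the authors are raw counts for each gene of the UCSC annotation from iGenomes. The labels name a poly(A) preparation and the methods a total RNA kit. Not given in the sources used here are the program that counted reads, whether it used strand and how it treated multiple matches. The submitters' processing notes also name DESeq2, Bowtie2, limma and HOMER 4.10. The other 18 sample columns, and the ChIP-seq and ATAC-seq samples, were not used here. Column headings carry animal numbers, so libraries were taken as unnumbered replicates of their group, and *P*-values measure the spread between these embryos.

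Counts were tested in R 4.3.3 with edgeR 4.0.16: filterByExpr (minimum count 10, 15027 genes kept), TMM scaling, robust glmQLFit, glmQLFTest, and Benjamini-Hochberg adjustment over all tested genes with a threshold of 0.05. SE is the size of the log2 fold change over the square root of *F*. The fit was also run on simulated counts with set fold changes. The share it recovered is not given here, so its power is left unstated. DESeq2 1.42.0, limma 3.58.1 (voom), RLE and upper-quartile scaling, other filters, a library size without histone and structural RNA genes, and leaving out each library were tried as alternatives. RPKM used the exonic length of GENCODE gene models (GRCm38), which also gave positions. No pair of libraries agreed within counting noise.

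The genes and lists were chosen with earlier results of these data known. Values in every library were given for those of the 45 genes with an unadjusted *P* under 0.05 in edgeR, a DESeq2 call or groups that did not overlap, for defining genes of each role (*Axin2*, *Lef1*, *Sp5*, *Nkd1*, *Ctnnb1*, *Fzd7*, *Sfrp1*, *Sfrp2*, *Sfrp4*, *Wnt7b*, *Tcf7l2*), and for some genes with the extreme fold change of a role; further Wnt genes were named at an unadjusted *P* under 0.05; *Dkk3*, *Wnt9a*, *Dact2*, *Tle3*, *Intu* and *Daam2* were given after their values were seen.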

Additional observations from a re-analysis of the deposited data

How the results depend on the processing

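No Wnt pathway gene was called in any fit run, with either tool or with any single library left out. Over all genes the count called moved with the tool: 0 in edgeR, 1 with no filter, 18 in DESeq2, 0 to 33 with a library left out, and 21 in DESeq2 without KO F731 and control F724, an alternative chosen after seeing the data. The 33 (DESeq2 without KO F731) and the 21 come from fits with a female embryo in control only. Wnt pathway genes higher at an unadjusted *P* under 0.05 numbered 3, 5 with limma-voom and 0 to 5 with a library left out; those lower numbered 0 to 1. With a library left out, KO libraries lay above control in 3 to 8 genes and below in 1 to 8, against 5.99% to 14.8% and 5.22% to 13.6% of all genes in edgeR; without KO F731 and control F724 these were 7 and 4, where 11.2% and 10.1% of all genes did so, since fewer libraries overlap less. The median log2 fold change with a library left out ran from -0.086 to 0.069 over the Wnt pathway genes, from -0.17 to 0.0039 in receptors and from -0.016 to 0.30 in targets; receptors measured 0.025 (edgeR) and 0.023 (DESeq2) without both libraries.

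Per length of the longest transcript, KO levels were 46.5 RPKM for *Wnt7b*, 360.3 for *Ctnnb1* and 13.4 for *Nkd1*, and the KO shares 56.9% for *Tcf7l1* and 60.8% for *Wnt7b*, a change set by the length used. With no filter, *Fzd4* (-0.0023), *Fzd6* (-0.022) and *Axin2* (-0.0013) crossed 0. With a library left out, 18 genes crossed 0: *Wnt7b* -0.068 to 0.27, *Fzd1* -0.34 to 0.021, *Fzd2* -0.15 to 0.041, *Fzd3* -0.22 to 0.044, *Fzd4* -0.35 to 0.46, *Fzd5* -0.31 to 0.28, *Fzd6* -0.051 to 0.069, *Lrp6* -0.43 to 0.00057, *Lgr5* -0.36 to 1.66, *Dvl1* -0.31 to 0.068, *Axin1* -0.19 to 0.00085, *Tcf7* -0.20 to 0.00099, *Tcf7l1* -0.33 to 0.12, *Tcf7l2* -0.058 to 0.21, *Axin2* -0.13 to 0.23, *Apcdd1* -0.03 to 0.32, *Sp5* -0.26 to 0.74 and *Znrf3* -0.023 to 0.26. The rest of the 44 tested genes kept their sign, so keeping it sets no gene apart. Among them were *Sfrp4* (0.57 to 0.73), *Fzd7* (0.29 to 0.66), *Fzd9* (0.23 to 0.56) and *Nkd2* (0.27 to 0.40). *Wnt4* (0.21 to 1.54), *Dkk3* (0.35 to 0.99) and, below 0, *Fzd8* (-0.60 to -0.15) were others. No paired analysis was possible because the count columns carry animal numbers and not the replicate numbers of the labels. Genes under 100 reads a library (*Lgr5*, *Notum*, *Wnt3*, *Wnt4*, *Fzd4*, *Fzd5*, *Fzd10*, *Rnf43*) can show large differences only.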
